A study of Mus musculus with 105 samples.

Results

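The comparison described here is that of activated mouse CD4+ T cells given harringtonine for 1 h with activated cells left untreated for the same hour. Its members were taken from the sample labels, which give 3 harringtonine libraries and 3 untreated libraries, replicates 2, 3 and 4 of each, out of a series whose RNA-seq libraries form 35 groups of 3. The harringtonine group was activated cells with 2 µg/ml harringtonine and no transcription inhibitor, and the untreated group was activated cells with neither a translation nor a transcription inhibitor. In both groups the CD4+ T cells came from the spleen and lymph nodes of 6-week-old C57BL/6J females and had been activated with beads that carry antibodies to CD3 and CD28. Activated cells with cycloheximide for 1 h (100 µg/ml), with harringtonine for 3 h or with triptolide (25 µM), and resting cells, which had not met the beads, are used below for comparison. The labels call the replicates biological but tie no number to a mouse or a culture, so p-values measure the spread between libraries. Gene tests on exon or intron counts drew that spread from every library of the series, not from the libraries compared alone. RNA was total RNA from a bulk population with an ERCC mix, a set of synthetic spike-in transcripts. Fewer cells of a type and less RNA per cell cannot be told apart in such samples.

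Harringtonine stops ribosomes in the first rounds of elongation after initiation, so that ribosomes already further along a message run off and polysomes empty. Immediate early genes such as Fos, Egr1 and Ier2 are transcribed within minutes of receptor signals without the need for new proteins, and their mRNAs are known to be short-lived. Accumulation of such mRNAs when translation is blocked is known as superinduction. Many of these mRNAs carry AU-rich elements in the 3′ untranslated region, which are bound by decay factors such as tristetraprolin, the product of Zfp36.

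The AU-rich heptamer TATTTAT, written in DNA letters, was searched on the transcript strand of annotated 3′ untranslated regions, since several of the mRNAs that rose carry it. Of the mRNAs with the largest rises, those of Egr1, Ier2, Egr2, Mad2l1bp and Gadd45g had 0 such sites. The sites below are shown in the 5′ to 3′ direction of the transcript with the heptamer in capitals. They were cut from the GENCODE transcripts on mm10.
Fos, chr12:85477105-85477129, plus strand: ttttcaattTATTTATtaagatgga
Zfp36, chr7:28376968-28376992, minus strand: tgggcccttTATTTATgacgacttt
Jun, chr4:95049081-95049105, minus strand: gcttgtgcaTATTTATaatagcgtt
Lif, chr11:4270471-4270495, plus strand: acagctgtcTATTTATtactatgtc
Btg2, chr1:134077251-134077275, minus strand: atgaagagcTATTTATacatgtttt
Promoters of Zfp36 and Egr2 also held a CArG box, an element known to be bound by serum response factor. It is in capitals in the RefSeq promoter windows on GRCm38.p6.
Zfp36, chr7:28379269-28379294, minus strand: aggccgccCCATAAAAGGagaaagct
Egr2, chr10:67537789-67537814, plus strand: tcctcagtCCATATATGGgcagcgac
Egr1, Ier2, Fosl1 and Rgs1 had no window in the promoter set searched. How often each element occurred among the mRNAs that rose or fell is given with the exon results.

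The harringtonine libraries held 2195645, 1868621 and 1814604 exon counts (replicates 2, 3 and 4), and the untreated libraries held 1892814, 1191642 and 1912167. Untreated replicate 3 stood apart before any gene was tested. It had the fewest counts of the 6. Of the total of its count column, 94.9% lay outside gene counts, against 77.3 to 89.5% in the other 5 libraries. Its 10 most abundant genes held 7.79% of its exon counts, against 4.45 to 4.82% in the others. Its counts differed from the other untreated libraries by a chi-square per degree of freedom of 26.8 and 22.2, while the other pairs within a group lay at 5.17 to 9.38. List counts and named exon calls that changed without this library are therefore given without it as well. The T cell markers Cd3e, Cd3g, Cd4 and Cd28 were present in all 6 libraries (57.2 to 516 CPM). The list of CD8 T and natural killer cell markers summed to 25.1 to 42.1 CPM with harringtonine and 35.01 to 40.8 CPM untreated, none of its 7 tested members was called, and Cd8b1, a chain of the CD8 coreceptor, was at 3.06 to 9.03 CPM with harringtonine and 4.44 to 7.99 CPM untreated. The B cell list summed to 48.7 to 132 CPM in harringtonine libraries and 93.2 to 187 CPM in untreated libraries. None of its 8 tested members passed the test, 3 were called lower with the replicate number as a block, and the part of B cell RNA in the results below was not tested.

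Exon counts per ERCC count were 35.3, 27.0 and 33.3 in harringtonine libraries and 28.1, 15.5 and 22.7 in untreated libraries. The groups averaged 31.9 ± 4.31 with harringtonine and 22.1 ± 6.34 untreated (SD, n = 3), or 147% as a ratio of geometric means. The groups overlapped, and the exact permutation test gave p = 0.2, two-sided, and 0.1 is the lowest p this design of 3 against 3 can give. Within replicates 2, 3 and 4, taken as pairs by number alone, the harringtonine library had 125, 174 and 147% of its untreated partner, higher in all 3 pairs. Strictly intronic counts made up 42.7, 37.9 and 34.4% of gene counts with harringtonine and 54.5, 37.4 and 43.6% in untreated libraries (exact permutation test, two-sided, p = 0.3). Changes below are log2 values relative to the typical mRNA, and the median of all genes was 0.57 with spike-in scaling, against −0.02 with the scaling used here. Levels are counts scaled to library size (CPM), adjusted p values are from edgeR's quasi-likelihood test with Benjamini-Hochberg adjustment over all genes tested, and n = 3 libraries per group throughout.

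After 1 h of harringtonine, 145 of 10741 genes had higher exon levels (1.35%) and 80 had lower ones (0.745%) at an adjusted p under 0.05. Immediate early genes led the named rises, with Egr1, Zfp36, Ier2 and Fos first, and Lgmn, Mpc2 and Rpn1 led the named falls. Libraries of the same replicate number deviated together (correlations 0.441, 0.41 and 0.385), though no label ties a number to a mouse or culture. With the number as a block the test called 645 genes higher (6.01%) and 692 lower (6.44%), the 225 genes among them. These fits took the spread from all groups of the series. With only the libraries compared in the fit, 6 genes were higher and 0 lower, and with the block as well 360 and 298. The balance of directions changed with the scaling. Scaling by RLE factors gave 212 higher and 51 lower, and library size alone 259 and 47. DESeq2, which differs in both the size factors and the test, gave 60 and 13. Spike-in scaling called 1725 genes higher and 0 lower, and 214 of the 225 genes kept their direction there. Without untreated replicate 3, 85 genes were higher and 28 lower. Without harringtonine replicate 2, 3 or 4 the counts were 98, 131 and 118, and with replicate 4 of both groups left out 12 genes were higher and 2 lower.

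**Figure D1:**
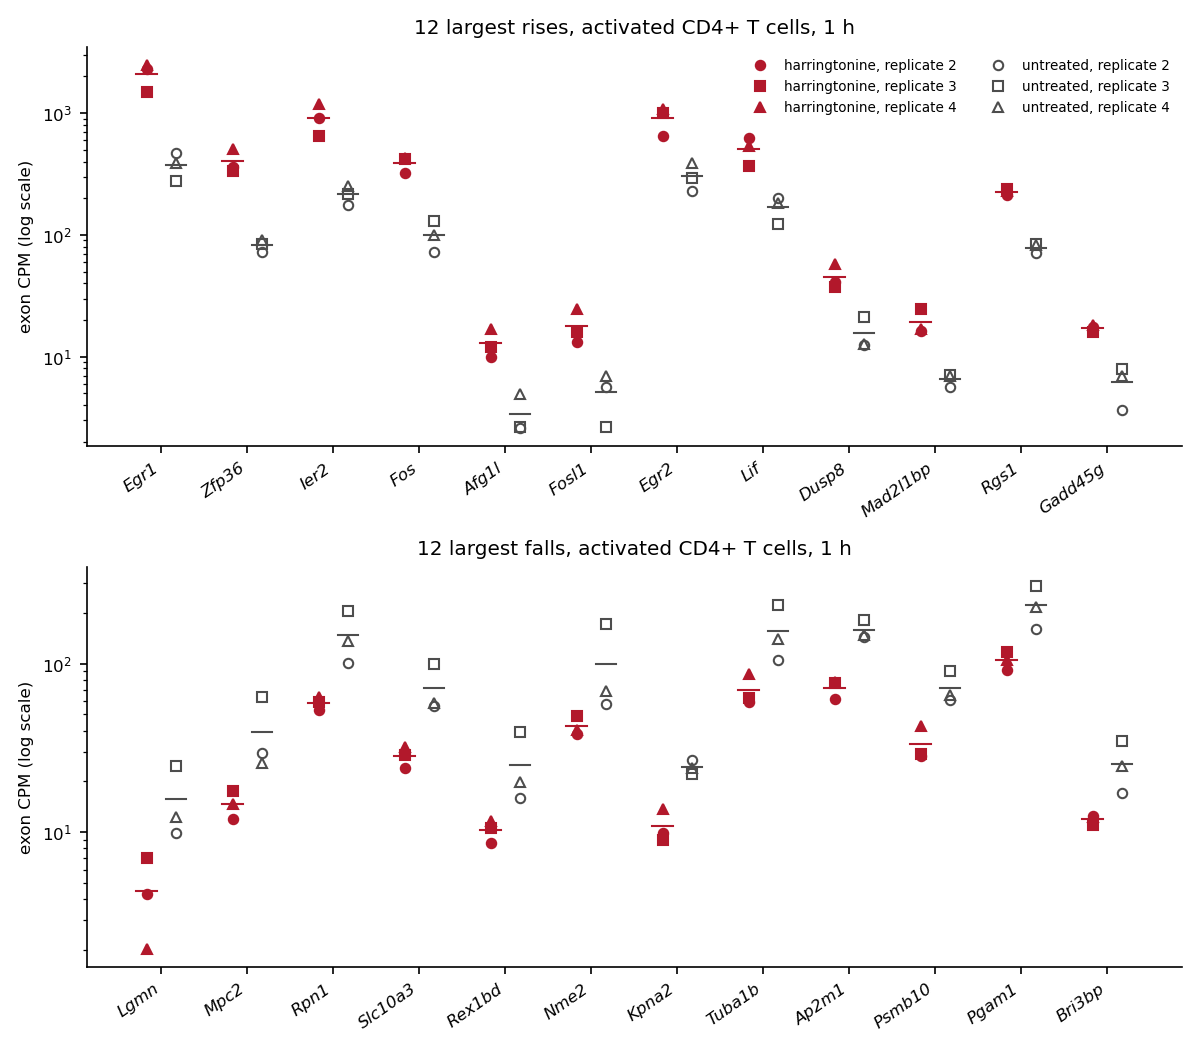
Exon levels in CPM (log axis) of the 12 named rises and 12 named falls in each library, with harringtonine in filled red on the left and untreated in open grey on the right of each gene, the shape giving the replicate number and the line the group mean. The 24 genes were chosen with groups that do not overlap, and the untreated points of the falls are widest where replicate 3 lies above the other untreated libraries.

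Egr1 (chromosome 18, 34859823 to 34864984, mm10), a zinc finger transcription factor, stood at 2313, 1492 and 2475 CPM with harringtonine and at 467, 275 and 391 CPM in untreated libraries. The change was 2.47 ± 0.26 (SE, adjusted p = 9.26e-11), and groups that do not overlap were part of the rule that named it. Zfp36, whose product binds AU-rich elements and recruits deadenylases, stood at 364, 332 and 508 CPM with harringtonine and at 72.4, 84.3 and 91.2 CPM untreated, a change of 2.28 ± 0.30 (adjusted p = 1.54e-07). The spread within each group was small beside the gap between them. Ier2, an immediate early nuclear protein, was at 908, 653 and 1193 CPM with harringtonine and at 177, 218 and 252 CPM untreated, a change of 2.09 ± 0.33 (adjusted p = 3.22e-05). Fos, the founding AP-1 subunit, was at 321, 423 and 426 CPM with harringtonine and at 72.9, 130 and 99.1 CPM untreated, a change of 1.97 ± 0.34 (adjusted p = 1.35e-04). Untreated replicate 3 had the highest Fos level and the lowest Egr1 level of the untreated libraries.

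Of the 32 immediate early transcription factors, 8 rose, 0 fell, and the median change was 0.97 against −0.02 for all genes tested. The count was also 8 without untreated replicate 3, where the median was 1.20, and the block gave 20 higher and 0 lower. Jun, which pairs with Fos in AP-1, was at 239, 201 and 253 CPM with harringtonine and at 84.8, 99.4 and 82.3 CPM untreated (1.38 ± 0.29, adjusted p = 0.00321). Egr2, an Egr factor known to restrain T cell responses, was at 653, 1007 and 1090 CPM with harringtonine and at 230, 292 and 387 CPM untreated (1.60 ± 0.40, adjusted p = 0.0183). Its call was lost without untreated replicate 3 (adjusted p = 0.0729), untreated replicate 2 (adjusted p = 0.065) or harringtonine replicate 4 (adjusted p = 0.067). Csrnp1 and Klf10 also rose, by 1.30 and 0.97. The most abundant members did not pass the test. The nuclear receptor Nr4a1 had 4669, 2459 and 5095 CPM with harringtonine and 2829, 1336 and 2716 CPM untreated, with overlapping groups (0.83 ± 0.41, adjusted p = 0.32, and adjusted p = 0.0143 with the block). For its relative Nr4a3 the change was 0.11 ± 0.48 (adjusted p = 0.969).

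Fosl1, a Fos-related AP-1 subunit, was the scarcest of the named immediate early genes. It had 13.3, 16.1 and 24.4 CPM with harringtonine and 5.69, 2.66 and 6.90 CPM untreated (1.73 ± 0.49, adjusted p = 0.0402). Its call did not hold when any of the 6 libraries was left out (adjusted p = 0.183 without untreated replicate 3).

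The members of the NF-kB list that rose encode feedback inhibitors and adaptors, and no NF-kB subunit gene was among the calls. Of 20 members 6 were higher and 0 lower, with a median change of 0.33. Without untreated replicate 3 there were 3 calls, and with the block 8. Nfkbiz, a nuclear IkB protein, was at 1290, 1010 and 1191 CPM with harringtonine and at 450, 394 and 417 CPM untreated (1.47 ± 0.25, adjusted p = 1.35e-04). Tnfaip3, which encodes the ubiquitin editor A20, was at 2302, 2230 and 2083 CPM with harringtonine and at 1054, 1090 and 839 CPM untreated (1.15 ± 0.22, adjusted p = 7.55e-04). The A20 partner Tnip1 rose by 1.02, the IkB genes Nfkbia and Nfkbie rose by 0.89 and 0.80, and the adaptor Traf2 rose by 0.69. The calls of Tnip1, Nfkbia and Traf2 were lost without untreated replicate 3 (adjusted p = 0.0684, 0.119 and 0.0697). Nfkb1, the most abundant member, had 2948, 2166.5 and 2674 CPM with harringtonine and 2873, 1736 and 2807 CPM untreated (0.07 ± 0.24, adjusted p = 0.948).

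Antiproliferative and stress-response genes rose as well. In the list of Gadd45 and BTG/TOB genes, 3 of 9 members rose and 0 fell, the median change was 0.72, and the count was also 3 without untreated replicate 3. Gadd45b stood at 1302, 998 and 1535 CPM with harringtonine and at 319, 653 and 435 CPM untreated (1.45 ± 0.26, adjusted p = 4.13e-04). Btg2, which binds deadenylases and is counted among p53 targets, stood at 1536, 1543 and 1335 CPM with harringtonine and at 452, 705 and 505 CPM untreated (1.41 ± 0.23, adjusted p = 5.73e-05). Gadd45g was scarce, with 17.6, 16.1 and 18.3 CPM with harringtonine and 3.62, 7.99 and 6.90 CPM untreated (1.52 ± 0.39, adjusted p = 0.0223). Btg1, a relative of Btg2 and as abundant, changed by −0.18 ± 0.27 (adjusted p = 0.836).

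Other named rises had different roles. Lif, a cytokine of the interleukin 6 family, had 620, 367 and 539 CPM with harringtonine and 199, 123 and 183 CPM untreated (1.59 ± 0.35, adjusted p = 0.00482), and its call was lost without untreated replicate 3 (adjusted p = 0.0541). It and Cxcl10 were the only called members among 29 T cell cytokines and chemokines, a list with a median of −0.18. Without that library Cxcl10 was not called either (adjusted p = 0.107), which left 0 calls in the list. Tnf changed by 0.37 ± 0.26 (adjusted p = 0.539). Dusp8, a phosphatase of JNK and p38 kinases, was at 40.8, 37.1 and 57.6 CPM with harringtonine and at 12.4, 21.3 and 12.8 CPM untreated (1.58 ± 0.32, adjusted p = 0.00184). It was the only call among 19 dual-specificity phosphatases and MAPK feedback genes, of which 2 were higher without untreated replicate 3, while the abundant Dusp2 and Dusp5 changed by 0.93 ± 0.38 (adjusted p = 0.192) and 0.47 ± 0.30 (adjusted p = 0.488). Rgs1, which speeds the shut-off of G proteins, was at 211, 240 and 228 CPM with harringtonine and at 70.9, 83.4 and 81.9 CPM untreated (1.53 ± 0.28, adjusted p = 5.53e-04). Its replicates lay close together in both groups. The mitochondrial ATPase gene Afg1l and the spindle checkpoint silencer Mad2l1bp completed the named rises, at 1.86 ± 0.44 (adjusted p = 0.0105) and 1.55 ± 0.33 (adjusted p = 0.00429). Afg1l lost its call without untreated replicate 2 (adjusted p = 0.0539) or harringtonine replicate 4 (adjusted p = 0.0684).

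Single genes of other lists rose as well. Irf1, a transcription factor of interferon responses, had 2906, 3177 and 2744 CPM with harringtonine and 1046, 1598 and 880 CPM untreated (1.33 ± 0.26, adjusted p = 0.00133). Ccnl1, a cyclin of splicing-associated kinases, had 555, 698 and 751 CPM with harringtonine and 230, 315 and 275 CPM untreated (1.29 ± 0.19, adjusted p = 2.45e-06). Among 7 CLK and DYRK kinases, Clk4 (0.88 ± 0.22, adjusted p = 0.0183) and Clk1 (0.86 ± 0.23, adjusted p = 0.0342) rose, while the list's median was 0.14. Clk1 was not called without untreated replicate 3 (adjusted p = 0.0626). Of 35 SR and hnRNP splicing regulators 1 rose, Rbm39, with a list median of 0.08, and of 32 helper lineage and activation transcription factors 1 rose, Irf1, with a list median of 0.19. Of 30 polymerase II pause and elongation factors 1 rose, the cyclin T gene Ccnt1, with a list median of 0.16 and 0 calls without untreated replicate 3. Each of these 3 lists had 0 falls. In the list of 277 numbered Zfp genes, most of them zinc finger transcription factors, 20 rose and 0 fell, with a median of 0.41, and the block gave 61 and 0. Zfp408 was at 59.7, 58.7 and 68.8 CPM with harringtonine and at 28.4, 24.8 and 27.1 CPM untreated (1.21 ± 0.21, adjusted p = 1.21e-04). Without untreated replicate 3 the count was 12 higher and 0 lower. In the list of decay effectors of AU-rich and stem-loop elements, Zfp36 was the only 1 of 15 members called (2 were higher without untreated replicate 3), and Zfp36l1 changed by 0.24 ± 0.33 (adjusted p = 0.81). The thioredoxin inhibitor Txnip rose by 1.41 ± 0.29 (adjusted p = 0.00184) in the list of naive-state genes, of which 2 of 26 were higher.

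**Figure D2:**
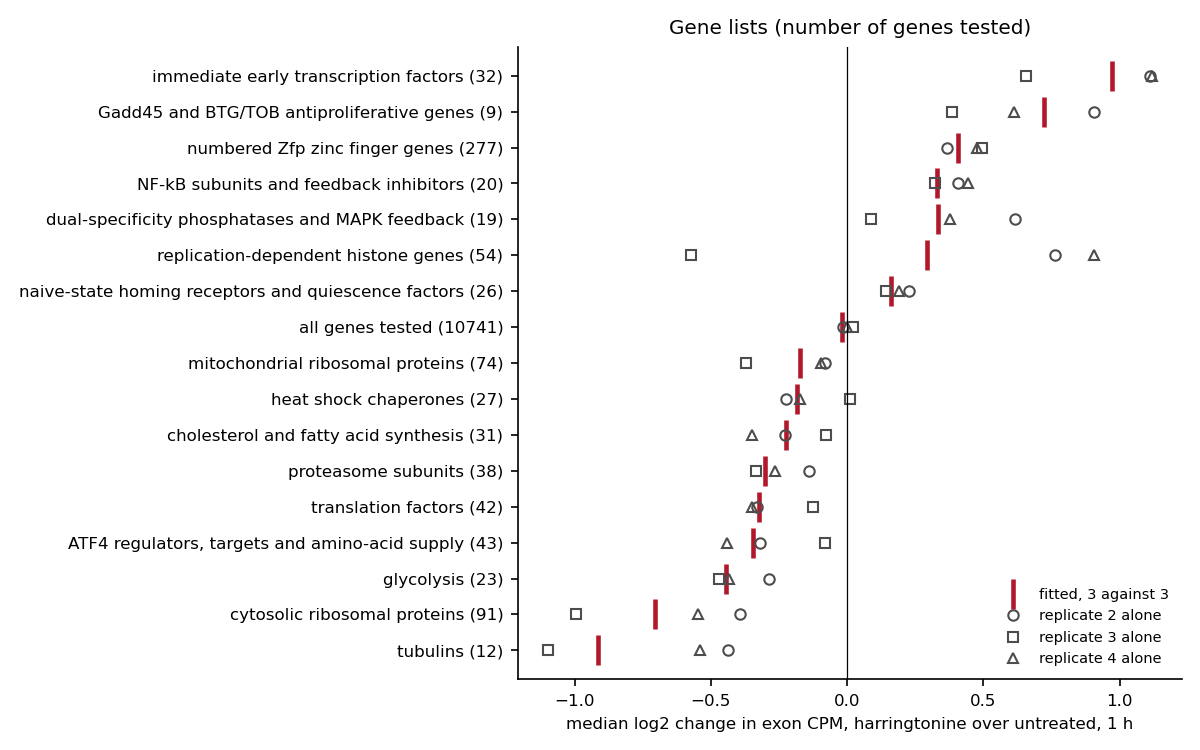
Median log2 change in exon level, harringtonine over untreated, of each gene list (vertical axis), with the fitted median as a red bar and the median within each replicate number as a grey shape. Immediate early factors lie at 0.97, and histone genes lie on opposite sides of 0 in replicate 3 (−0.57) and in replicates 2 and 4 (0.76 and 0.91).

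Among the falls, Ap2m1, a subunit of the clathrin adaptor AP-2, varied little within each group. It had 61.5, 76.8 and 77.9 CPM with harringtonine and 144, 183 and 147 CPM in untreated libraries, and the change was −1.13 ± 0.16 (adjusted p = 1.07e-06). Rpn1, a subunit of the oligosaccharyltransferase that glycosylates proteins in the endoplasmic reticulum, had 52.9, 59.2 and 63.2 CPM with harringtonine and 101, 206 and 136 CPM untreated (−1.33 ± 0.26, adjusted p = 0.0012). Pgam1, a glycolytic mutase, had 92.0 to 117 CPM in the 3 harringtonine libraries and 161 to 291 CPM in the 3 untreated ones (−1.09 ± 0.20, adjusted p = 3.3e-04). In each of these genes the lowest untreated library was above the highest harringtonine library, which the rule for named genes required. These 3 falls and that of Slc10a3 (−1.32 ± 0.27, adjusted p = 0.00154) held when each library was left out singly.

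The other named falls lost their calls without untreated replicate 3. That library was the highest untreated one in 11 of the 12 named falls, those that held included, and the lowest for Kpna2. Lgmn, a lysosomal protease, had 4.30, 7.02 and 2.04 CPM with harringtonine and 9.83, 24.8 and 12.3 CPM untreated (−1.72 ± 0.45, adjusted p = 0.0241, and 0.21 without that library). Mpc2, a subunit of the mitochondrial pyruvate carrier, fell by 1.37 (adjusted p = 0.0342, and 0.334 without it). The alpha-tubulin gene Tuba1b had 59.3, 62.2 and 86.6 CPM with harringtonine and 106, 222 and 140 CPM untreated (−1.16 ± 0.23, adjusted p = 0.00158, and 0.0764 without it). The immunoproteasome subunit Psmb10 changed by −1.10 (adjusted p = 0.00736, and 0.0764 without it). Rex1bd, Nme2, Kpna2 and Bri3bp fell by 1.22, 1.19, 1.17 and 1.06, and without that library their adjusted p was 0.342, 0.57, 0.0791 and 0.254. The change of Kpna2 was then −1.23, larger than with it, while the other falls of this paragraph became smaller. All 12 were called with the block. Spike-in scaling left all 12 changes below 0, with values of −1.08 to −0.39, and called 0 of them. Counts of Tuba1b and Nme2 are uncertain, since each has near-identical paralogs and reads that align at more than 1 place are left out of gene counts.

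Lists of housekeeping genes had lower medians, and their counts leaned on the same library. Of 91 cytosolic ribosomal protein genes 0 rose and 5 fell, with a median of −0.71, and the block gave 74 lower. Among these Rpl10 fell by 0.82 (adjusted p = 0.0342, and 0.741 without untreated replicate 3). The abundant Rpsa was at −0.86 ± 0.28 (adjusted p = 0.0724). All ribosomal protein genes summed to 57749, 75896 and 50013 CPM with harringtonine and to 77589, 168310 and 73308 CPM untreated. Untreated replicate 3 was far above the others. Without untreated replicate 3 none of the 91 was called and the median was −0.28, and with spike-in scaling the median was −0.02 and 2 members were higher. Reads of ribosomal protein genes can also match their many pseudogenes, and reads that align at more than 1 place are left out of gene counts. The entry for such reads was 87.6% of the total of the count column in untreated replicate 3 and 52.1 to 78.1% in the other libraries compared.

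Proteasome subunits gave 0 higher and 5 lower of 38, among them Psma4 at 66.6, 85.8 and 82.0 CPM with harringtonine and 114, 175 and 146 CPM untreated (−0.89 ± 0.21, adjusted p = 0.00802, and 0.0824 without untreated replicate 3). The list's median was −0.30, 1 call was left without untreated replicate 3, and the block gave 13 lower. Tubulins gave 0 higher and 2 lower of 12 with a median of −0.92, and without untreated replicate 3 the median was −0.24 with 0 calls. Glycolysis genes gave 0 higher and 3 lower of 23, namely Pgam1, Slc16a1 and Pgk1, with a median of −0.45, and Pgk1 was not called without untreated replicate 3 (adjusted p = 0.129). Translation factors gave 1 higher and 3 lower of 42, and 1 and 1 without that library. Eif4a2, an RNA helicase of initiation, was at 517, 588 and 542 CPM with harringtonine and at 281, 245 and 268 CPM untreated (1.05 ± 0.24, adjusted p = 0.00588). In the same list Eif1ax fell by 0.67 (adjusted p = 0.00374), and Eef1a1, the most abundant member, had 8435, 11534 and 8753 CPM with harringtonine and 12242, 21598 and 13060 CPM untreated (−0.71 ± 0.22, adjusted p = 0.0672). Heat shock chaperones gave 0 higher and 2 lower of 27, the chaperonin subunits Tcp1 and Cct3 (−0.75 and −0.72). Cholesterol and fatty acid synthesis gave 0 higher and 2 lower of 31, Cyp51 and Acly (−0.80 and −0.53). The calls of Cct3 and Acly were lost without untreated replicate 3 (adjusted p = 0.129 and 0.305), which left 1 fall in each of the chaperone and cholesterol lists. With spike-in scaling the median of each of these lists but the tubulins turned positive (tubulins −0.19).

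Transcript features were compared between the genes called higher or lower and all genes tested, as descriptions without a test. The 3′ untranslated region had a median of 1259 bases among genes that rose, 563 among genes that fell and 1055.5 among all. Coding sequences had medians of 1498.5, 1018.5 and 1383 bases in the same order. The heptamer printed above lay in the 3′ untranslated region of 52 of 142 genes that rose (36.6%), 12 of 78 that fell (15.4%) and 3055 of 10546 tested (29.0%). The regions of the genes that rose were longer, as given above, and the part of length in these shares was not tested. A CArG box, searched on both strands from 250 bases before to 50 bases after the start, lay in 4 of 121 promoters of genes that rose (3.31%), 0 of 64 of those that fell and 126 of 8399 of all (1.5%). A window without a match says only that these letters are not in it.

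The same genes were then read in libraries that the comparison does not use. Under triptolide, which blocks transcription initiation, 92 of the 145 genes that rose had lower levels at 1 h than at 0 h (63.4%) against 15.1% of all genes, with a median change of −1.03. Only 4 of the 80 genes that fell were lower there, and 33 were higher (41.3%) against 9.12% of all genes, with a median of 0.49. These changes start from triptolide libraries of 0 h, where mean levels of the named rises were already below those of untreated 0 h libraries. Egr1 averaged 201 CPM there against 763 CPM untreated, Zfp36 34.8 against 167 and Fos 54.3 against 205. Harringtonine for 3 h against untreated cells of 3 h called 133 of the 145 higher (91.7%, background 15.5%) and 69 of the 80 lower (86.3%, background 15.5%). In resting cells at 1 h, 38 of the 145 were higher (26.2%, background 0.996%) and 15 of the 80 lower (18.8%, background 0.577%). With harringtonine added to triptolide, against triptolide alone at 1 h, 78 of the 145 were higher (53.8%, background 9.24%) and 35 of the 80 lower (43.8%, background 2.19%).

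**Figure D3:**
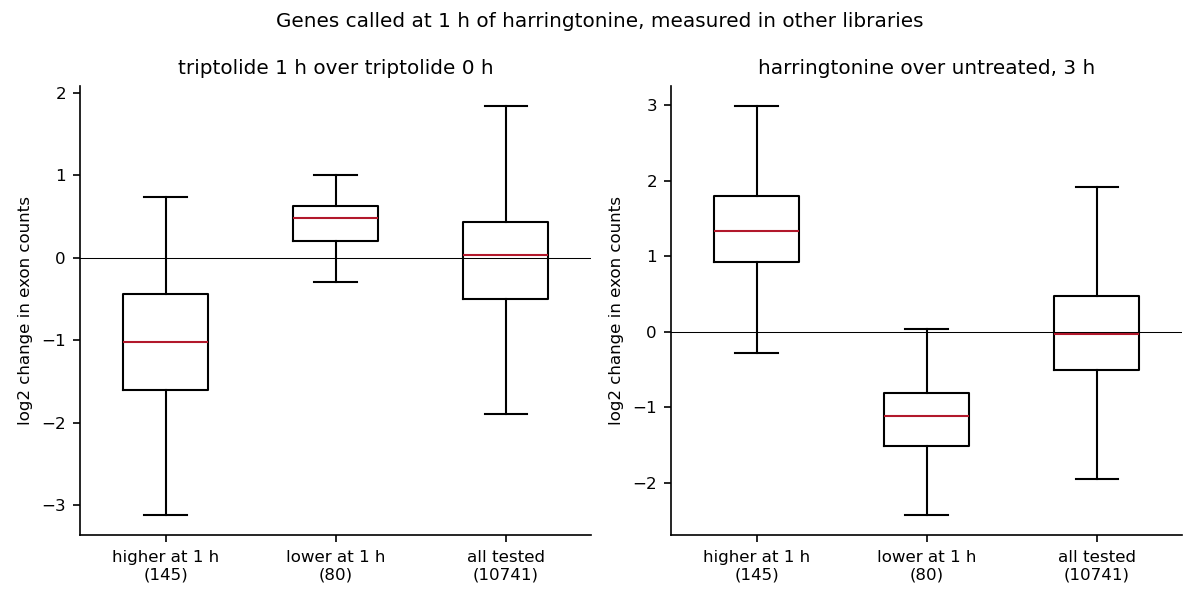
Box plots of the log2 change in libraries outside the comparison, triptolide 1 h over 0 h and harringtonine over untreated at 3 h, for the 145 genes that rose at 1 h, the 80 that fell and all 10741 genes tested (box, quartiles and median; whiskers to 1.5 interquartile ranges; points beyond them not drawn). Under triptolide the medians are −1.03 for the genes that rose, 0.49 for those that fell and 0.03 for all.

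Intron counts stand nearer to unspliced RNA. Of 10750 genes, 4 were higher (0.0372%) and 8 lower (0.0744%) in introns after harringtonine. Of the 8 that fell, 5 are in the list of ATF4 regulators, targets and amino acid supply, and Phgdh was the only gene called in both exons and introns. Of the 12 named exon rises 9 were tested in introns, and none was called. Dusp8 introns changed by 1.40 ± 0.60 (adjusted p = 0.771), and with the block they were called higher (adjusted p = 0.0205). With the block 178 genes were called, 73 of them higher (0.679%) and the others lower (0.977%). At an unadjusted p under 0.05 there were 585 genes, and DESeq2 called 90.

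Phgdh, the first enzyme of serine synthesis, had 50.1, 31.3 and 33.2 intronic CPM with harringtonine and 160, 127 and 186 in untreated libraries (−2.03 ± 0.33, adjusted p = 3.06e-04). Slc7a5, a carrier of large neutral amino acids, had 168, 142 and 104 intronic CPM with harringtonine and 454, 378 and 416 untreated (−1.59 ± 0.32, adjusted p = 0.0127). Sesn2, a stress-induced leucine sensor, had 7.97, 6.83 and 4.42 intronic CPM with harringtonine and 42.1, 26.6 and 39.7 untreated (−2.47 ± 0.56, adjusted p = 0.0339). In each of these genes all 3 harringtonine libraries were below every untreated library, which the rule for named genes required. The actin-linked adhesion gene Parvg and the sialyltransferase gene St6galnac4 fell by 1.63 and 1.55 (adjusted p = 0.0424 and 0.0339). The other falls were the glycyl- and asparaginyl-tRNA synthetase genes Gars (−1.44) and Nars (−1.38) and the tRNA exporter Xpot (−1.16). The rises were Atp6v0d1, a subunit of the vacuolar proton pump (1.32 ± 0.29, adjusted p = 0.0242), Lasp1, an actin-binding protein gene (1.27 ± 0.29, adjusted p = 0.0396), and the predicted genes Gm26965 and Gm28041.

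Of 36 tested members of the list of ATF4 regulators, targets and amino acid supply, 5 were lower in introns and 0 higher, with a median of −0.89, and the block gave 18 lower. ATF4 is the transcription factor of the amino acid and unfolded protein stress responses. In exons 2 of 43 members were lower, Psph (−0.93 ± 0.25, adjusted p = 0.0324) and Phgdh, with a median of −0.35. Phgdh exon levels were 447, 468 and 394 CPM with harringtonine and 621, 954 and 651 CPM untreated (−0.77 ± 0.21, adjusted p = 0.0361). Without untreated replicate 3 none of the exon calls of this list held and the median was −0.49. Slc7a5 exon levels overlapped between groups (−0.30 ± 0.38, adjusted p = 0.799). After 3 h of harringtonine, 35 members were lower in exons (background 15.5% of all genes) with a median of −1.41. In resting cells at 1 h the median was 0.00451.

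Without untreated replicate 3, 20 genes were called in introns, and without harringtonine replicate 4, 0 were. Spike-in scaling called 1 gene in introns and library size alone called 4.

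**Figure D4:**
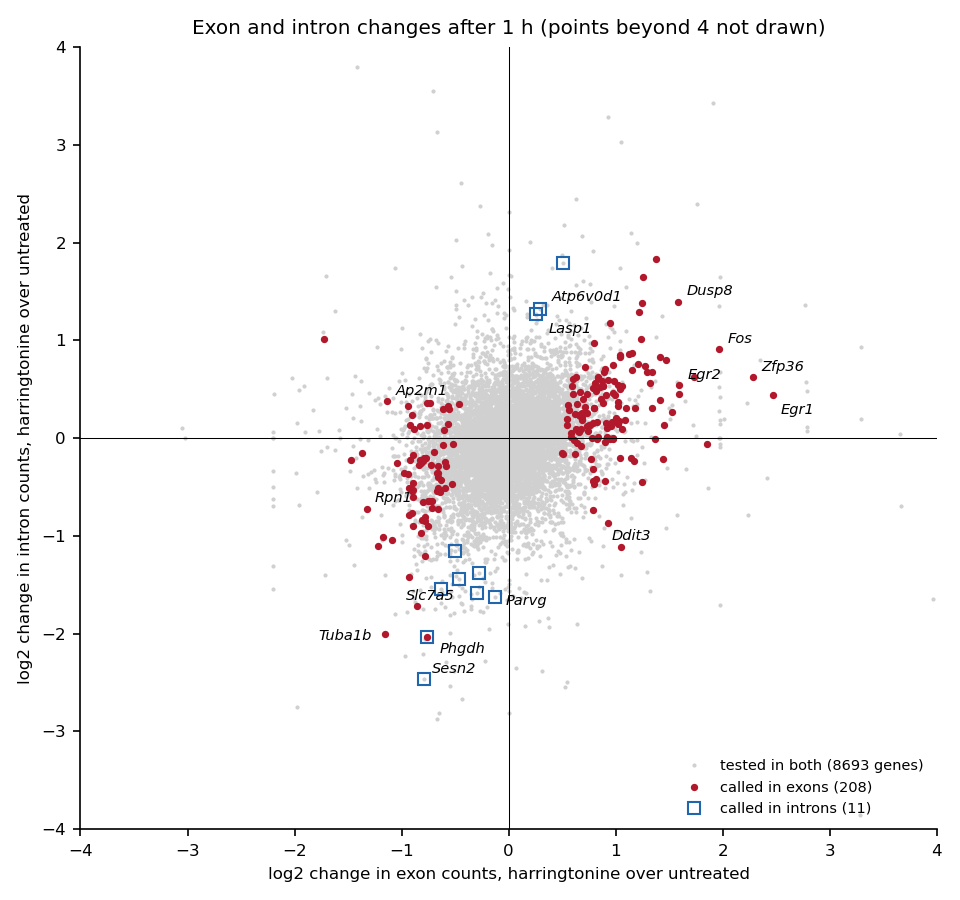
Log2 change in exon level (horizontal) against log2 change in intron level (vertical), harringtonine over untreated, for the 8693 genes tested in both, with genes called in exons as red points and genes called in introns as blue squares; points beyond 4 on either axis are not drawn. Genes were marked by these same changes, so the spread of each marked set along its own axis follows from the marking. Phgdh, marked in both, lies at −0.77 and −2.03.

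Of the immediate early rises, introns of Egr1 changed by 0.44, of Zfp36 by 0.63, of Fos by 0.91 and of Egr2 by 0.54 (adjusted p = 1 for each). The exon change minus the intron change was 1.82 for Egr1, 1.51 for Zfp36 and 0.99 for Fos, and passed the test for none of them (adjusted p = 0.62, 0.33 and 0.53). Over 6988 genes the difference was called for 2 (0.0286%), both higher in exons than in introns. Ddit3, the ATF4 target that encodes CHOP, had 132, 152 and 99.8 exon CPM with harringtonine and 46.0, 98.5 and 65.6 untreated. Its introns had 26.6, 42.1 and 18.4 CPM with harringtonine and 38.7, 106 and 47.7 CPM untreated, so that exons and introns moved apart by 1.97 ± 0.29 (adjusted p = 0.0294). Arhgap25, a Rac GTPase-activating protein gene, differed by 1.46 ± 0.21 (adjusted p = 0.0294). Neither call held when replicate 2, 3 or 4 was left out or with limma, and 813 genes had an unadjusted p under 0.05. With the replicate number as a term, 309 genes were higher and 224 lower.

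Cycloheximide freezes ribosomes on the message, whereas harringtonine clears them. Harringtonine and cycloheximide at 1 h share the same untreated libraries, so their changes are set side by side. Egr1 averaged 2093 ± 527 CPM with harringtonine, 1852 ± 428 CPM with cycloheximide and 377 ± 96.4 CPM untreated (SD). Its change was 2.47 with harringtonine and 2.29 with cycloheximide, and the difference between the inhibitors was 0.18 ± 0.25 (SE). For Zfp36 the difference was −0.08 ± 0.27 and for Fos −0.27 ± 0.32. Tested directly, harringtonine against cycloheximide called 0 of 10741 genes with edgeR and 0 with DESeq2, and the lowest adjusted p was 0.266. A gene count of 208 had an unadjusted p under 0.05 (1.94%), and the block called 0 higher and 9 lower. Lgmn was lower by 1.62 ± 0.42 with harringtonine than with cycloheximide (adjusted p = 0.902), Rpn1 by 0.75 ± 0.26 and Ap2m1 by 0.43 ± 0.16. That the test called nothing does not show that the inhibitors act alike.

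**Figure D5:**
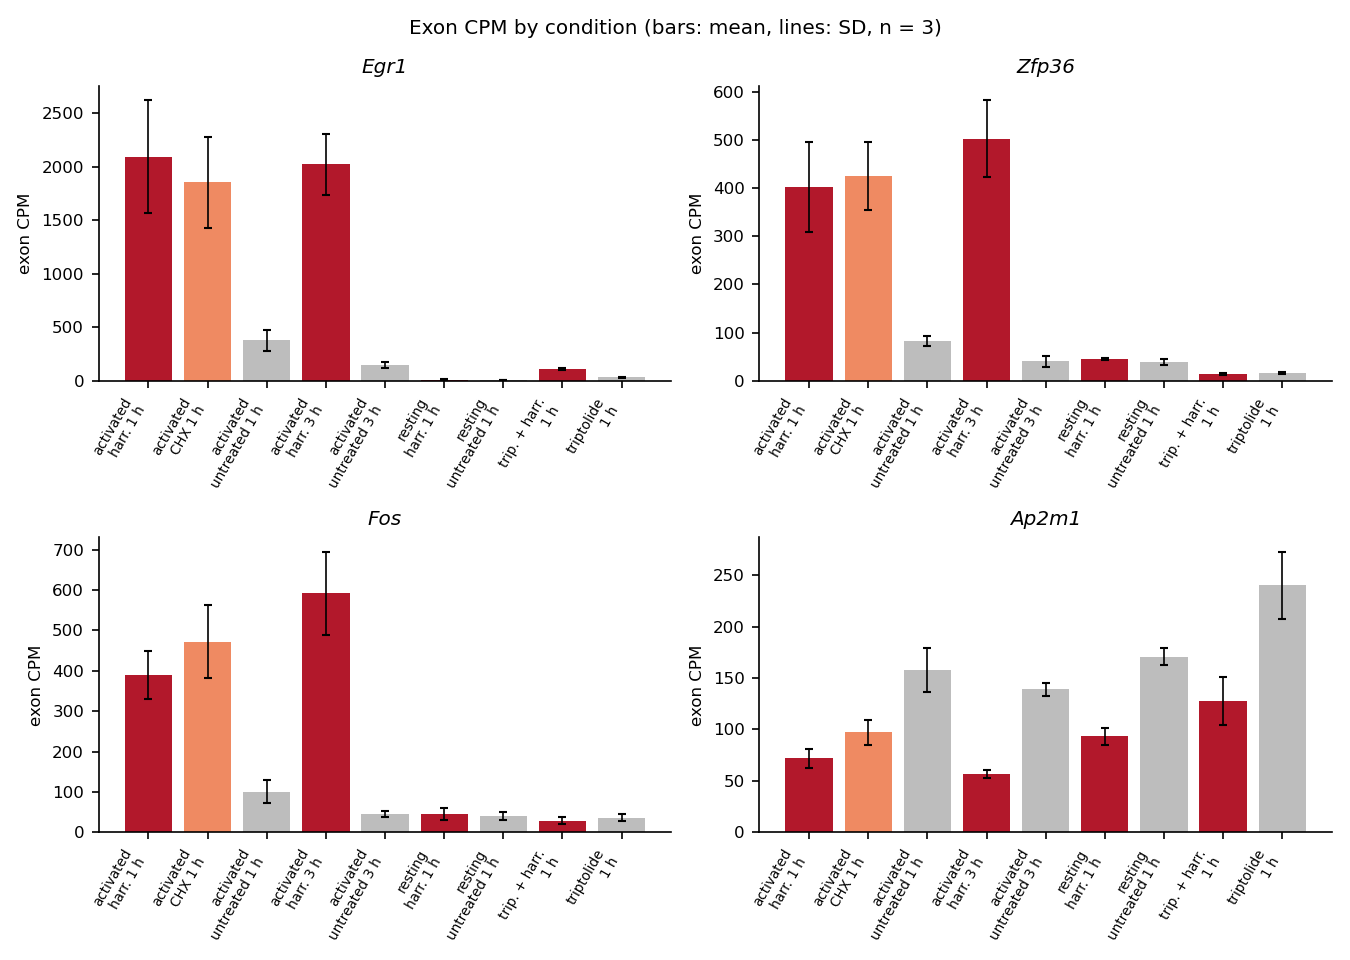
Exon levels in CPM (bars, mean; error bars, SD; n = 3 libraries) of Egr1, Zfp36, Fos and Ap2m1 in 9 conditions, with harringtonine in red, cycloheximide in orange and conditions without a translation inhibitor in grey. Egr1 is at 2093 with harringtonine and 377 untreated in activated cells at 1 h, and at 12.05 with harringtonine and 9.59 untreated in resting cells.

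In untreated activated cells Egr1 averaged 763 ± 53.6 CPM at 0 h, 377 ± 96.4 CPM at 1 h and 147 ± 28.7 CPM at 3 h. With harringtonine Egr1 was at 2093 ± 527 CPM at 1 h and at 2019 ± 285 CPM at 3 h. Zfp36 averaged 401 ± 93.9 CPM with harringtonine at 1 h and 502 ± 80.0 CPM at 3 h, against 82.6 ± 9.51 CPM untreated at 1 h and 40.5 ± 11.6 CPM untreated at 3 h. Ap2m1 averaged 72.1 ± 9.19 CPM with harringtonine at 1 h, against 158 ± 21.4 CPM untreated. In resting cells Ap2m1 averaged 93.2 ± 8.41 CPM with harringtonine, against 171 ± 8.05 CPM untreated, a change of −0.87 (adjusted p = 5.46e-04).

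The change at 3 h minus the change at 1 h was called higher for 182 genes (1.69%) and lower for 178 (1.66%), and spike-in scaling gave 10 and 29. Library size alone gave 135 and 249, and the block 658 and 646. Leaving out replicate 4 everywhere left 38 calls. Dusp8 led the higher ones by 3.18, and the peptidoglycan amidase gene Pglyrp2 and the G protein gamma subunit Gng4 followed. The lower ones were led by Chac1 (−3.10), a glutathione-degrading enzyme, the adenylate kinase Ak4 and the pseudokinase Trib3. Chac1 and Trib3 are ATF4 targets. Trib3 had 104, 77.3 and 58.1 CPM with harringtonine and 92.1, 65.7 and 69.0 CPM untreated at 1 h, where the groups overlapped, and 14.7, 18.4 and 10.8 CPM with harringtonine against 92.4, 96.6 and 78.7 CPM untreated at 3 h.

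The change in activated cells minus that in resting cells at 1 h was called for 2 of 10741 genes (0.0186%), Egr1 (2.18 ± 0.42, adjusted p = 0.0192) and Zfp36 (2.07 ± 0.42, adjusted p = 0.0225). Egr1 had 13.2, 11.03 and 11.9 CPM in resting cells with harringtonine and 8.28, 8.38 and 12.1 CPM in untreated resting cells. Zfp36 had 46.5, 44.1 and 44.9 CPM with harringtonine and 31.4, 41.5 and 43.3 CPM untreated there, so that its harringtonine libraries lay above the untreated ones by little. The 2 calls became 0 without untreated replicate 3 or harringtonine replicate 4 of the activated cells. They also became 0 without any replicate number, or with spike-in or RLE scaling. There was 1 call without untreated replicate 2 or 4 of the activated cells, and there were 5 with DESeq2.

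The change with harringtonine added to triptolide minus the change with harringtonine alone was called higher for 144 genes (1.34%) and lower for 6 (0.0559%), and the block gave 477 and 69. The lower ones included Gadd45g (−2.55 ± 0.70), Zfp36 (−2.52 ± 0.47) and Fos (−2.26 ± 0.50). Zfp36 had 11.7, 13.04 and 16.9 CPM with triptolide and harringtonine and 15.6, 19.7 and 15.5 CPM with triptolide alone, where the groups overlapped. Egr1 had 110 ± 12.9 CPM with triptolide and harringtonine and 33.4 ± 2.71 CPM with triptolide alone, a change of 1.72 (adjusted p = 3.17e-06), and its difference from the change with harringtonine alone was −0.75 ± 0.37 (adjusted p = 0.533). The higher ones were led by Nhlrc1, Bod1 and Cmtr2, genes at 0 to 1.55 CPM with triptolide alone, where the fitted value depends on few counts. The call of Bod1 was lost without untreated replicate 3 (adjusted p = 0.0513). Spike-in scaling gave 4 calls, and leaving out replicate 4 gave 1.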

How the data were processed

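RNA-seq libraries of total RNA with ERCC spike-ins were compared for activated CD4+ T cells with harringtonine and untreated at 1 h. The values are HTSeq read counts deposited by the authors, whole numbers with no scaling, over exons, coding sequence, introns alone and spike-ins, for 22322 mouse genes and 92 ERCC RNAs. TopHat2 2.0.13, Bowtie 1.1.1.0, HTSeq and mm10 are named in the submitters' processing notes; whether counting used strand is not given in the sources used here. Reads outside genes stayed out of library sizes.

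Genes were kept with filterByExpr. Exon and intron counts were each fitted over every library of the series, with 1 mean for each of 35 groups, by edgeR's robust quasi-likelihood method with TMM scaling (edgeR 4.0.16 in R 4.3.3). Calls are at 0.05 after Benjamini-Hochberg adjustment. Standard errors were taken from the F statistic. Exon minus intron changes were fitted on the 6 libraries with the library as a term. Total counts of 1191642 to 2195645 set the precision per library. Library ratios and shares were compared with exact permutation tests. Scripts were tested on simulated data.

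The members, gene lists and tests were chosen with earlier results of these data known. Among exon calls the 12 strongest rises and 12 strongest falls are named, from those with at least 10 CPM in 1 group, groups that do not overlap and no predicted, pseudogene or mitochondrial symbol. In introns the 5 largest each way are named, in differences the 3 largest, and in each list the 2 lowest p and the 2 highest levels decide. Other genes were chosen after their values were seen, and some that the rule selects may not be reported here. Same-numbered libraries deviated together (correlations 0.441, 0.41 and 0.385), so the replicate number was also fitted as a block within each cell state.

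Alternatives were DESeq2 1.42.0, RLE factors, library size alone, spike-in scaling, coding-sequence counts, no filter, only the libraries compared, limma 3.58.1 for the exon minus intron change, and each replicate number left out. Leaving out single libraries, leaving out the 2 shallowest of the series, and the block on the 6 intron libraries were chosen after seeing the data. Gene positions and 3′ untranslated regions are from GENCODE M21, and promoters from RefSeq. Plots used matplotlib 3.10.9 under Python 3.11.15.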

Additional observations from a re-analysis of the deposited data

Results flagged for a closer look

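Each value here is a difference between changes on the log2 scale, named because the test of that difference itself called the gene, with edgeR's quasi-likelihood test. The harringtonine change at 3 h minus that at 1 h in activated cells was 3.18 for Dusp8, 3.01 for Pglyrp2 and 2.94 for Gng4, and it was −3.10 for Chac1, −2.88 for Ak4 and −2.69 for Trib3. The change at 1 h in activated minus resting cells was 2.18 for Egr1 and 2.07 for Zfp36. The change with triptolide minus that without it was 3.55 for Nhlrc1, 3.50 for Bod1 and 3.37 for Cmtr2, and it was −2.55 for Gadd45g, −2.52 for Zfp36 and −2.26 for Fos. Without activated untreated replicate 3 at 1 h, the calls of Ak4 and Bod1 were lost (adjusted p = 0.0801 and 0.0513). The 2 calls of activated minus resting cells were lost as well. That library had the highest level of Pglyrp2 and Gng4 among the 6 libraries of that time, 26.6 and 10.7 CPM. Its part in the size of these differences was not tested.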

How the results depend on the processing

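Exon calls at 1 h numbered 225. They were 6 with only the 6 libraries and 658 with only those and the replicate block, 128 with coding-sequence counts, 73 with DESeq2, 1725 with spike-in scaling and 1337 with the block on all libraries. Leaving out a replicate number or a single library gave 14 to 211. Intron calls numbered 12, and were 5 and 745 with only the 6 libraries without and with the block, 90 with DESeq2, 4 with library size alone, 1 with spike-in scaling, 2 without a filter, 178 with the block, 20 without the 2 shallowest libraries and 0 to 20 with libraries left out. The exon minus intron calls, 2, became 533 with the block, 0 with limma and 0 without any replicate number. Harringtonine against cycloheximide gave 0 calls, 3 without a filter and 9 with the block, and 0 with any library left out. The 3 h minus 1 h calls, 360, became 138 with only the libraries compared, 39 with spike-in scaling, 1304 with the block and 38 to 398 with libraries left out. Activated minus resting, 2 calls, became 1 with only the libraries compared, 5 with DESeq2, 0 with RLE factors, 1 with library size alone, 0 with spike-in scaling, 7 without a filter, 5 with the block and 0 to 2 with libraries left out. With triptolide minus alone, 150 calls became 21 with only the libraries compared, 80 with DESeq2, 4 with spike-in scaling, 546 with the block, 1 to 136 with a replicate number or a single library left out and 146 without the 2 shallowest. Exon counts per ERCC count stayed above 100% (136 to 160% without a replicate number), and for the intronic share of gene counts the difference lay between −10.5 and −4.38 percentage points. The fall of Acly turned to 0.11 with spike-in scaling (adjusted p = 0.741), and no other called exon change named in the text changed sign under the alternatives run. Of the named genes that were not called, Btg1, Slc7a5, Nr4a3, Nfkb1, Zfp36l1 and Lck changed sign under at least 1 of them. The cause of each move was not tested. Exon counts of 1191642 to 2195645 per library limit what can be called for scarce genes.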

Other observations

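Several gene lists held few or no calls at 1 h, where 1.35% of all genes tested were called higher and 0.745% lower. With the replicate block these shares were 6.01% and 6.44%. Of 54 replication-dependent histone genes none was called, and 2 were called higher with the replicate block. Their median change was 0.76, −0.57 and 0.91 within replicates 2, 3 and 4. At 3 h of harringtonine 38 were higher with a median of 1.47, and 15.5% of all genes were higher there. Hist1h1c, a linker histone gene, had 309, 260 and 343 CPM with harringtonine and 138, 410 and 180 CPM untreated, so that untreated replicate 3 lay above every other library. Of 74 mitochondrial ribosomal protein genes none was called, and 10 were lower with the block. Of 28 T cell receptor and proximal signalling genes none was called. In that list Lck, the kinase at the receptor, had 415, 357 and 325 CPM with harringtonine and 576, 460 and 521 CPM untreated (adjusted p = 0.0634). Cd69, an early activation marker, had 3509, 3706 and 4107 CPM with harringtonine and 1987, 1559 and 2157 CPM untreated (adjusted p = 0.0671). Ribosome biogenesis genes, 45 in all, gave no call at 1 h and 25 lower at 3 h, where 15.5% of all genes were lower.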
